A study of Mus musculus with 17 samples.

Results

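MAP kinase phosphatases and Tribbles 1 were followed as 8 genes, Dusp1, Dusp2, Dusp4, Dusp5, Dusp6, Dusp10, Dusp16 and Trib1, out of 55491 gene rows in each of 2 deposited tables of expected counts from RNA sequencing. Their rows were found in both tables by gene symbol, and all 8 passed the filter on low counts in both cell types. The genes were chosen by name after levels and fold changes in these libraries were known, and which of those values weighed most is not recorded, so their fold changes are given as a description of their size against the spread between libraries. The libraries came from mouse B cells of the spleen (9 libraries) and from bone marrow dendritic cells (BMDC, 8 libraries), and the question put to each was which genes change with the drugs. The combination group received MSA2, a small molecule that activates STING, a sensor of innate immunity, together with IPI-549 (eganelisib), an inhibitor of the lipid kinase PI3Kγ of white blood cells (3 B cell and 2 BMDC libraries). The MSA2 group received MSA2 without IPI-549 (3 libraries in each cell type), and the Control group received neither (3 libraries in each cell type). A group with IPI-549 by itself was not among the libraries, and doses and times are not in the labels. The series text names KPC mice, a model of pancreatic cancer, as the source of all cells, whereas the genotype label of every library reads WT.

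MAP kinases pass signals from receptors at the cell surface to the nucleus through a chain in which each kinase phosphorylates the next, and the last kinases of the chain are ERK, JNK and p38. The dual-specificity phosphatases of the DUSP family remove both activating phosphates from these last kinases, and many of them are transcribed in response to the same kinases, which makes them a negative feedback. Dusp1, Dusp2, Dusp4 and Dusp5 encode nuclear phosphatases, Dusp6 encodes a cytoplasmic one that acts on ERK, and Dusp10 and Dusp16 encode phosphatases that act on JNK and p38. Trib1 encodes a pseudokinase that brings the ubiquitin ligase COP1 to C/EBP transcription factors and can also bind the ERK kinase MEK1, and it is known for its part in the myeloid lineage.

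The B cell libraries held 41093440 to 51433008 counts each and the BMDC libraries 34760025 to 73166643, with the most in BMDC MSA2 replicate 2. Levels are counts-per-million values (CPM), scaled within the table of each cell type, so that a level in B cells and a level in BMDC stand on separate scales. Fold changes are given as log2 values ± standard error (SE), and adjusted p-values are those of the quasi-likelihood test of edgeR, adjusted by the Benjamini-Hochberg method over all genes of the cell type, with a call at an adjusted p under 0.05. Whether each replicate is a separate animal or culture is not in the labels, and the p-values may reflect no more than technical spread. In these bulk libraries, fewer cells of a type and less RNA per cell cannot be told apart. The BMDC libraries expressed the dendritic cell gene Itgax at 1270 to 1888 CPM. Beside it, 8 monocyte and macrophage markers had a summed level of 12732 to 18053 CPM. Of the other dendritic cell markers, Ccr7 had 58.9 to 263 CPM, Cd209a 30.1 to 46.4 CPM and Zbtb46 12.3 to 22.5 CPM. Batf3 had 4.64 to 7.09 CPM, Clec9a 3.35 to 6.89 CPM and Xcr1 0.0851 to 3.50 CPM. Flt3 stayed at or below 1.08 CPM and Siglech had 4 counts or fewer. The labels describe no sorting of the B cells, and the marker lists of the B cell libraries are given beside the B cell results.

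The genes are protein coding and lie apart from each other in GRCm38, with positions from GENCODE M21. Dusp1 (ENSMUSG00000024190) is at chromosome 17, 26505590 to 26562128, Dusp2 (ENSMUSG00000027368) at chromosome 2, 127336159 to 127338376, Dusp4 (ENSMUSG00000031530) at chromosome 8, 34807297 to 34819894, and Dusp5 (ENSMUSG00000034765) at chromosome 19, 53529109 to 53542431. Dusp6 (ENSMUSG00000019960) is at chromosome 10, 99263231 to 99267489, Dusp10 (ENSMUSG00000039384) at chromosome 1, 184013302 to 184075636, Dusp16 (ENSMUSG00000030203) at chromosome 6, 134715468 to 134792625, and Trib1 (ENSMUSG00000032501) at chromosome 15, 59648350 to 59657099. Dusp1 and Dusp16 are on the minus strand and the other 6 on the plus strand. The strand setting of the counts is not given in the sources used here, so reads in an overlap with a gene of the opposite strand are uncertain. The annotated span of Dusp1 overlaps Ergic1, whose count came to 16.8% of that of Dusp1 in B cells and to 285% in BMDC, and that of Dusp10 overlaps 1700056E22Rik, at 1.66% in B cells and 15.2% in BMDC.

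Promoters of 6 of the 8 genes were found in RefSeq (GRCm38.p6, 250 bases before to 50 after the start), those of Dusp1, Dusp2, Dusp5, Dusp6, Dusp10 and Dusp16. Those of Dusp5 and Dusp1 are printed, because Dusp5 was lower with the combination in both cell types and Dusp1 was the other gene with a match to 1 of 8 motifs searched. The capitals mark these matches, 5′ to 3′ on the strand of the gene.
Dusp5 promoter, chr19:53528895-53529194, plus strand: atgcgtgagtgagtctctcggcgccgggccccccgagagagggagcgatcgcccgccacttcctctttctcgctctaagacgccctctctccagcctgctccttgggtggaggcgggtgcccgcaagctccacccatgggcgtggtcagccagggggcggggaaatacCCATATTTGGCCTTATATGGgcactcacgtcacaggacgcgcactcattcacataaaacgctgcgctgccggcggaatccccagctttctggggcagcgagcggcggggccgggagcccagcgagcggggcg
Dusp1 promoter, chr17:26508423-26508722, minus strand: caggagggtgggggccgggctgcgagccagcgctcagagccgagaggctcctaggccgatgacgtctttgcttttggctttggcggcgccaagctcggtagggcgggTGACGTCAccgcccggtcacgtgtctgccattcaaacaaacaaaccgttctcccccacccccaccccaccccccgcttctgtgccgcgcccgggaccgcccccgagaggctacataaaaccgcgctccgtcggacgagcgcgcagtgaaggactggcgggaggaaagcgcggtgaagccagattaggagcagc
The capitals of Dusp5 are 2 adjoining CArG boxes, the motif of serum response factor, at bases 169 to 178 and 179 to 188. Of all 32851 mouse promoters of the same length, 1.63% held a CArG box and 6 held 2 or more. The capitals of Dusp1 are a cyclic AMP response element (TGACGTCA) at bases 108 to 115, which 1.79% of promoters held. The promoters of Dusp2, Dusp6, Dusp10 and Dusp16 held no match to the 8 motifs searched on both strands, which were these 2, the AP-1 element TGANTCA (7.81% of all promoters), the ETS element CCGGAAG (8.86%), the kappa B element (4.51%), the interferon-stimulated response element (3.44%), the FOXO element GTAAACA (3.65%) and the TATA box TATAAA (13.6%). The promoters of Dusp1 and Dusp10 (chromosome 1, 184034131 to 184034430) lie inside the GENCODE spans given above and not at their 5′ ends. A match is a run of letters and was not tested as a binding site.

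In BMDC, Trib1 and Dusp5 were lower with either treatment. With MSA2 against Control, 3 of the 8 genes were lower (Dusp5, Dusp10 and Trib1) and none was higher, beside 13.5% of all 14614 genes tested called lower and 14.6% called higher. With the combination against Control, 2 of 8 were lower (Dusp5 and Trib1) and none was higher, beside 5.38% of all genes lower and 7.51% higher. Adding IPI-549 to MSA2 gave no call among the 8 genes, and 0.00% of all genes were called in that comparison, with 1594 genes at an unadjusted p under 0.05, 162 called by DESeq2 and 3 by limma-voom. The median log2 fold change of the 8 genes was -0.49 with MSA2 and -0.55 with the combination, and that of all genes was -0.01 and 0.01. In the combination, MSA2 and Control libraries of BMDC, the summed level of 8 monocyte and macrophage markers was 14443 to 15351, 12732 to 15763 and 15654 to 18053 CPM. In the same order that of 9 dendritic cell markers was 1736 to 1767, 1555 to 1681 and 1775 to 2031 CPM, and that of 8 neutrophil markers 193 to 287, 261 to 372 and 123 to 352 CPM. Of 8 dendritic cell markers tested, 3 were higher and 1 lower with the combination than in Control (median log2 fold change 0.30), and 3 were higher and 2 lower with MSA2 (median 0.37). Most of their sum was Itgax. Of the 8 monocyte and macrophage markers, none was higher and 3 were lower with the combination, and 1 was higher and 3 were lower with MSA2. Hbb-bs and Slc4a1 of the erythroid list and Ncr1 of the NK cell list had no count. Other markers of these lists did have counts. In the NK cell list, Klrb1c had 16 to 83 counts and Klrd1 had 9 to 54. In the erythroid list, Hba-a1 had 11 counts or fewer and Hba-a2 had 6 or fewer. The part of these levels in the results on the 8 genes was not tested.

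Trib1 had 1.56 and 2.02 CPM in the 2 combination libraries, 2.6, 2.88 and 0.946 CPM in the MSA2 libraries, and 12.1, 11.1 and 25.9 CPM in the Control libraries. Every treated library was below every Control library, and the ranges of the combination and MSA2 overlapped. Against Control, Trib1 was 9.13-fold lower with the combination (-3.19 ± 0.47 SE, edgeR adjusted p = 0.000964) and 7.41-fold lower with MSA2 (-2.89 ± 0.38 SE, edgeR adjusted p = 0.000207). The level in Control replicate 3 was more than that of either other Control library, and both calls held without it. Between the treatments the difference was -0.30 ± 0.50 SE (edgeR adjusted p = 0.873).

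Dusp5, the nuclear phosphatase specific to ERK, had 6.26 and 7.09 CPM in the combination libraries, 11.2, 10.1 and 6.82 CPM in the MSA2 libraries, and 27.0, 27.9 and 36.8 CPM in the Control libraries. Again no treated library reached the Control range, and the treated groups overlapped. Dusp5 was 4.58-fold lower with the combination than in Control (-2.20 ± 0.21 SE, edgeR adjusted p = 2.94e-05) and 3.25-fold lower with MSA2 than in Control (-1.70 ± 0.17 SE, edgeR adjusted p = 2.30e-05). The combination was -0.50 ± 0.20 SE from MSA2, which did not pass (edgeR adjusted p = 0.410) except with no filter on low counts (adjusted p = 0.00219).

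**Figure D1:**
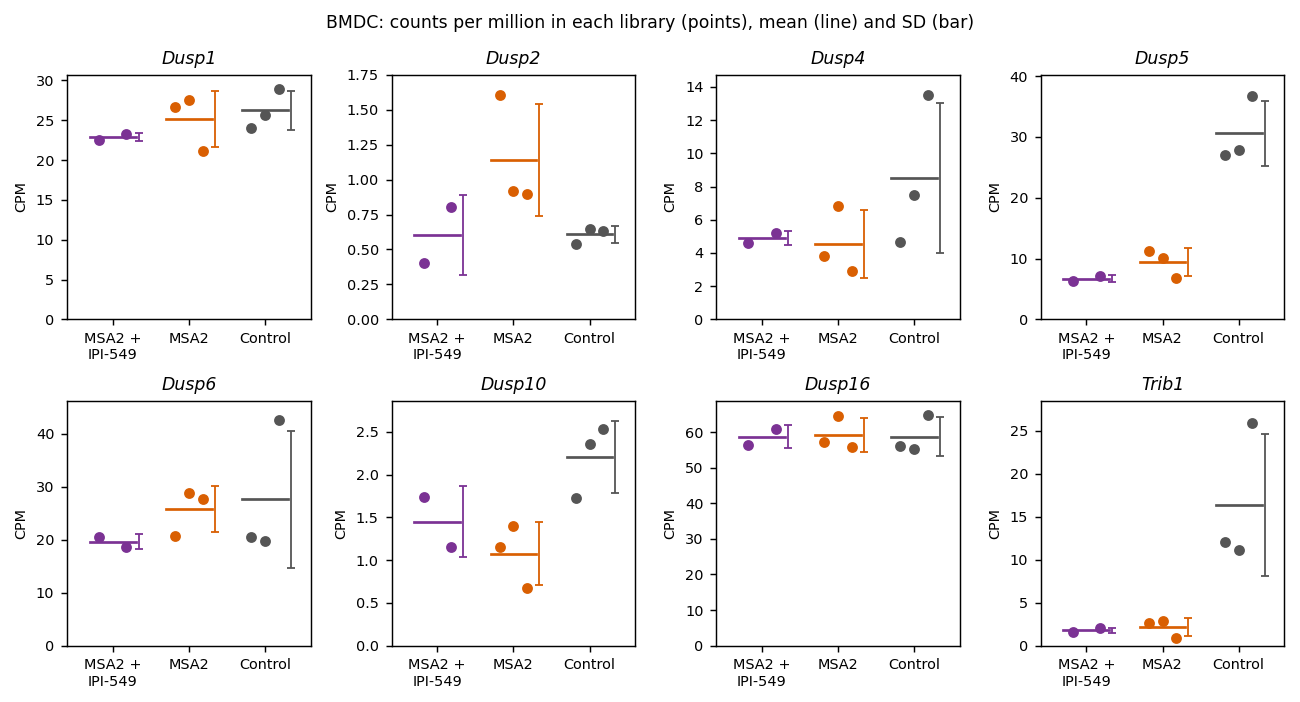
CPM of the 8 genes in each BMDC library (points), with the mean of each group (line) and its SD (bar), for MSA2 + IPI-549, MSA2 and Control on a linear axis that starts at 0 and differs between genes. For Trib1 and Dusp5 all 5 treated libraries lie below all 3 Control libraries, while Dusp16 and Dusp1 lie at like levels in the 3 groups.

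Of the other nuclear phosphatases, Dusp4 (ERK and JNK) had 4.59 and 5.22 CPM in the combination, 3.84, 6.82 and 2.89 CPM with MSA2, and 4.65, 7.46 and 13.5 CPM in Control. The groups overlapped, since Control replicate 1 was as low as the treated libraries, and the change with MSA2 was -0.88 ± 0.36 SE (edgeR adjusted p = 0.0943). Without Control replicate 1 it passed (adjusted p = 0.0264), as it did without MSA2 replicate 2 (adjusted p = 0.0228) and with no filter on low counts (adjusted p = 2.24e-09). The change with the combination passed with no filter (-0.81 ± 0.16 SE, adjusted p = 6.79e-06). With no filter the SE was smaller than in the main fit, at 0.14 against 0.36 with MSA2 and 0.16 against 0.42 with the combination. The changes stayed near those of the main fit, and the groups still overlapped. Dusp2, a phosphatase first known from blood cells, was at 0.404 to 1.60 CPM in all 8 libraries, with 0.896 to 1.60 CPM in MSA2 above 0.539 to 0.650 CPM in Control (0.88 ± 0.33 SE, edgeR adjusted p = 0.0673, and 0.0208 with no filter on low counts). Dusp1, which acts mainly on p38 and JNK, was between 21.1 and 28.9 CPM in every library and moved by -0.20 ± 0.12 SE with the combination (edgeR adjusted p = 0.344) and by -0.06 ± 0.10 SE with MSA2 (edgeR adjusted p = 0.731).

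Dusp6, the cytoplasmic ERK phosphatase, had 20.6 and 18.6 CPM in the combination, 20.8, 28.9 and 27.7 CPM with MSA2, and 20.6, 19.8 and 42.7 CPM in Control. Control replicate 3 stood above all the others, which ran from 18.6 to 28.9 CPM. Neither difference from Control passed (edgeR adjusted p = 0.319 with the combination and 0.825 with MSA2). With no filter on low counts the combination passed against Control (-0.50 ± 0.10 SE, adjusted p = 2.75e-05) and against MSA2 (-0.41 ± 0.10 SE, adjusted p = 0.00407). The main fit gave like changes with a larger SE (-0.49 ± 0.29 SE and -0.40 ± 0.28 SE). The libraries of the combination and Control overlapped, while those of the combination, at 20.6 CPM or less, were below all MSA2 libraries, at 20.8 CPM or more. Dusp10, at 1.74 and 1.15 CPM in the combination, 1.16, 1.40 and 0.672 CPM with MSA2, and 1.73, 2.35 and 2.54 CPM in Control, was lower with MSA2 (-1.01 ± 0.28 SE, edgeR adjusted p = 0.0187). That call was lost without Control replicate 2, Control replicate 3 or MSA2 replicate 3, at adjusted p-values of 0.0591, 0.0568 and 0.0566. Dusp16 had 55.2 to 64.9 CPM over all 8 libraries, and its differences from Control were -0.00 ± 0.09 SE with the combination (edgeR adjusted p = 0.998) and 0.01 ± 0.08 SE with MSA2 (edgeR adjusted p = 0.922).

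In B cells the genes went several ways with MSA2, and the combination sat below Control in most. Between the combination and Control, Dusp5 alone was called (lower, 1 of 8), beside 0.371% of all 16180 genes called lower and 0.686% called higher, and 5 of the 8 genes (Dusp2, Dusp4, Dusp5, Dusp6 and Trib1) had all combination libraries below all Control libraries, as 10.9% of all genes did. Between MSA2 and Control, Dusp1 and Dusp10 were higher and Dusp2, Dusp4 and Dusp16 were lower, beside 24.9% of all genes higher and 18.5% lower. Between the combination and MSA2, Dusp4 and Dusp16 were higher and Dusp1, Dusp5, Dusp6, Dusp10 and Trib1 were lower, beside 14.1% higher and 22.9% lower. The median log2 fold change of the 8 genes was -0.45 for the combination against Control, -0.15 for MSA2 against Control and -0.44 for the combination against MSA2, and that of all genes was -0.02, -0.01 and 0.01.

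Markers of other cells moved with the MSA2 group of B cells. The summed level of 10 B cell markers was 8070 to 8806 CPM in the combination, 4054 to 4516 CPM in MSA2 and 7955 to 8518 CPM in Control, and all 10 were lower in MSA2 than in Control (median log2 fold change -0.97). Sums in the combination, MSA2 and Control were 51.6 to 60.4, 1003 to 1257 and 64.5 to 81.2 CPM over 10 T cell markers, 5.94 to 10.1, 199.97 to 241 and 12.4 to 14.9 CPM over 7 NK cell markers, and 42.0 to 44.9, 1196 to 1322 and 41.7 to 59.9 CPM over 8 monocyte markers. Over 8 neutrophil markers they were 0.462 to 0.930, 1529 to 1611 and 2.11 to 32.9 CPM, over 7 erythroid markers 13.05 to 17.9, 953 to 1106 and 16.99 to 37.7 CPM, and over 6 mast cell markers 0.130 to 0.308, 13.3 to 14.5 and 0.135 to 0.260 CPM. Over 9 dendritic cell markers the sums were 1401 to 1739, 1013 to 1267 and 1175 to 1429 CPM. Ccr7 by itself made up 886 CPM or more of these sums. Of the 9, 6 were higher and none lower in MSA2 than in Control (median log2 fold change 1.26). All markers of the T cell, NK cell, monocyte, neutrophil, erythroid and mast cell lists were higher in MSA2 than in Control, and their part in the results on the 8 genes was not tested. The 3 MSA2 libraries also carry later library numbers than all the other B cell libraries, and a difference in handling cannot be told apart from the treatment. Comparisons of the combination with Control use the MSA2 libraries only to set the filter, the scaling and the spread. There, 1 of 10 T cell, 1 of 8 monocyte and 2 of 7 erythroid markers were lower, beside 0.371% of all genes. Median log2 fold changes were -2.40 (T cell), -1.42 (NK cell), -0.36 (monocyte), -4.61 (neutrophil), -0.75 (erythroid), -1.88 (mast cell) and 0.04 (B cell). The part of these markers in that comparison was not tested either.

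Dusp5 had 163, 153 and 179 CPM in the combination libraries of B cells, 234, 223 and 274 CPM in MSA2, and 243, 297 and 260 CPM in Control. The combination lay below both other groups, which overlapped. The combination was lower than Control (-0.69 ± 0.11 SE, edgeR adjusted p = 0.00771) and than MSA2 (-0.56 ± 0.11 SE, edgeR adjusted p = 0.00128), while MSA2 was -0.13 ± 0.10 SE from Control (edgeR adjusted p = 0.348). The call against Control was lost without Control replicate 2, combination replicate 1 or combination replicate 2, at adjusted p-values of 0.0538, 0.0512 and 0.0505.

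Trib1 had 27.3, 27.9 and 16.7 CPM in the combination, 60.8, 80.0 and 39.5 CPM in MSA2, and 42.9, 59.6 and 62.1 CPM in Control. The combination was below both other groups, and MSA2 and Control overlapped (0.13 ± 0.25 SE, edgeR adjusted p = 0.712). The combination was lower than MSA2 (-1.32 ± 0.26 SE, edgeR adjusted p = 0.00177). Against Control its log2 fold change of -1.19 ± 0.26 SE, a 2.29-fold lower level, missed the threshold (edgeR adjusted p = 0.0622). It passed without the MSA2 libraries in the fit (adjusted p = 0.0220), without MSA2 replicate 2 (adjusted p = 0.0471), without MSA2 replicate 3 (adjusted p = 0.01295), with no filter on low counts (adjusted p = 0.000381) or with DESeq2 (adjusted p = 0.000134).

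Dusp6 had 34.3, 30.7 and 36.2 CPM in the combination, 43.6, 42.0 and 40.5 CPM in MSA2, and 40.3, 50.9 and 51.8 CPM in Control, so the combination was below every other library. It was lower than MSA2 (-0.32 ± 0.10 SE, edgeR adjusted p = 0.0321). Its difference from Control was -0.50 ± 0.10 SE (edgeR adjusted p = 0.0511), and that of MSA2 from Control was -0.18 ± 0.10 SE (edgeR adjusted p = 0.185). The first call was lost without MSA2 replicate 1, MSA2 replicate 2, combination replicate 1 or combination replicate 2, at adjusted p-values from 0.0734 to 0.131, or with no filter on low counts (adjusted p = 0.0541). That of the combination from Control passed with no filter (adjusted p = 0.0129) and with DESeq2 (adjusted p = 0.00504). Both differences from Control passed without Control replicate 1 (adjusted p = 0.0107 for the combination and 0.0271 for MSA2).

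**Figure D2:**
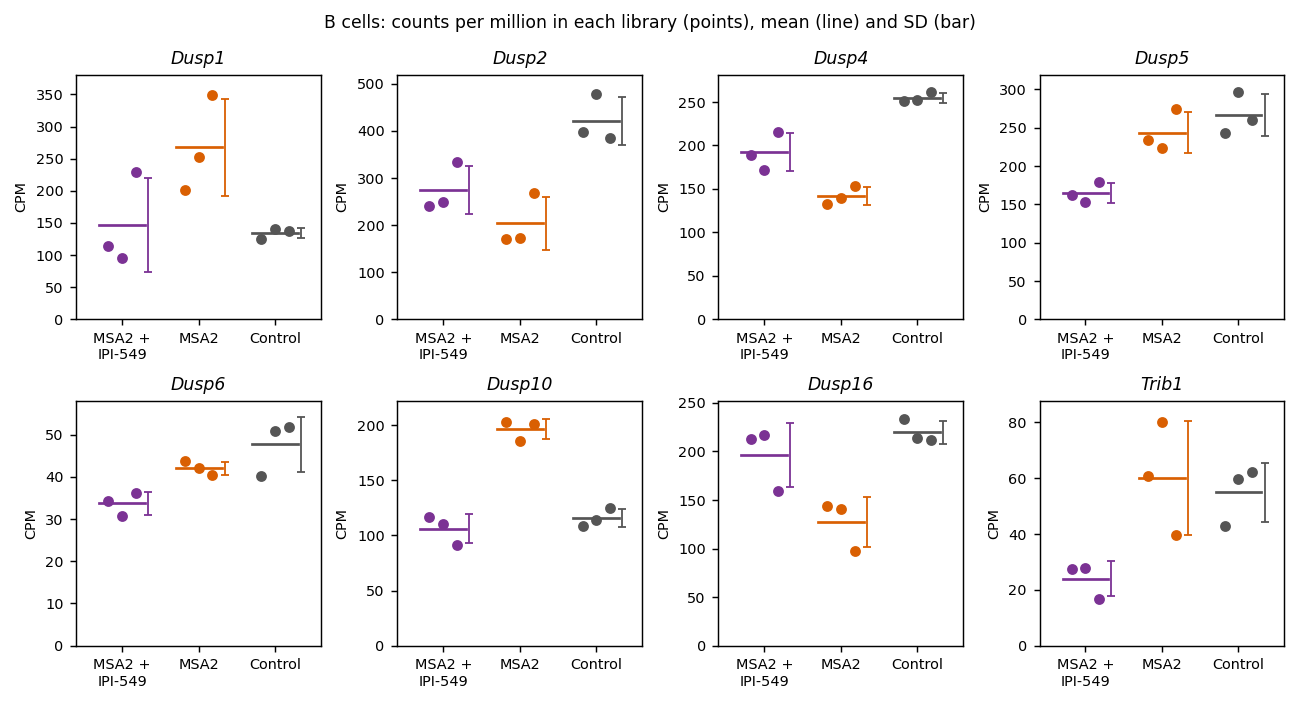
CPM of the 8 genes in each B cell library (points), with the mean of each group (line) and its SD (bar), for MSA2 + IPI-549, MSA2 and Control on a linear axis that starts at 0 and differs between genes. Dusp10 is at 186 CPM or more in the MSA2 libraries and at 125 CPM or less in the others, while Dusp5, Dusp6 and Trib1 are lowest in the combination.

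Dusp2 had 241, 249 and 333 CPM in the combination, 171, 172 and 268 CPM in MSA2, and 398, 479 and 386 CPM in Control. Both treated groups were below Control and overlapped each other. It was lower in MSA2 than in Control (-1.05 ± 0.19 SE, edgeR adjusted p = 0.000821), while the combination was -0.62 ± 0.18 SE from Control (edgeR adjusted p = 0.222) and 0.43 ± 0.18 SE from MSA2 (edgeR adjusted p = 0.0907). The last difference passed with the title suffix as a replicate block over all 3 groups (0.44 ± 0.15 SE, adjusted p = 0.0444). It also passed without MSA2 replicate 3 (adjusted p = 0.00365), with no filter on low counts (adjusted p = 0.0203) and with DESeq2 (adjusted p = 0.0483). That from Control passed with no filter (adjusted p = 0.0318) and with DESeq2 (adjusted p = 0.0483).

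Dusp4 had 189, 172 and 216 CPM in the combination, 133, 139 and 153 CPM in MSA2, and 251, 252 and 262 CPM in Control. The groups did not overlap, with MSA2 lowest and Control highest. MSA2 was lower than Control (-0.85 ± 0.09 SE, edgeR adjusted p = 2.00e-05). The combination was higher than MSA2 by 0.44 ± 0.09 SE (edgeR adjusted p = 0.00263) and was -0.41 ± 0.09 SE from Control (edgeR adjusted p = 0.0780). The last of these passed without combination replicate 3 (adjusted p = 0.0304), with no filter on low counts (adjusted p = 0.0388) or with DESeq2 (adjusted p = 0.0104).

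Dusp1 had 113, 95.1 and 230 CPM in the combination, 201, 253 and 349 CPM in MSA2, and 126, 140 and 137 CPM in Control. Combination replicate 3 reached into the MSA2 range, while the other 2 combination libraries were below Control. Dusp1 was higher in MSA2 than in Control (0.996 ± 0.290 SE, edgeR adjusted p = 0.0165) and lower in the combination than in MSA2 (-0.87 ± 0.29 SE, edgeR adjusted p = 0.0346), with 0.12 ± 0.29 SE between the combination and Control (edgeR adjusted p = 0.931). The call for MSA2 was lost without Control replicate 1 or MSA2 replicate 3 (adjusted p = 0.0527 and 0.0532). That for the combination against MSA2 was lost without any 1 of Control replicates 2 and 3, MSA2 replicates 2 and 3 and combination replicates 1 and 2 (adjusted p from 0.0502 to 0.130). It was also lost with DESeq2 (adjusted p = 0.0728) and with the compared groups alone in the fit (adjusted p = 0.0697).

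Of the phosphatases that act on JNK and p38, Dusp10 had 116, 110.1 and 91.3 CPM in the combination, 203, 186 and 201 CPM in MSA2, and 109, 114 and 125 CPM in Control. MSA2 stood above both other groups, which overlapped. It was higher than Control by 0.76 ± 0.10 SE (edgeR adjusted p = 7.27e-05), and the combination was lower than MSA2 (-0.89 ± 0.10 SE, edgeR adjusted p = 2.19e-05) and -0.13 ± 0.10 SE from Control (edgeR adjusted p = 0.728).

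Dusp16 ran the other way, with 213, 217 and 159 CPM in the combination, 144, 141 and 97.3 CPM in MSA2, and 233, 214 and 212 CPM in Control. MSA2 was below both other groups, which overlapped. It was lower than Control (-0.79 ± 0.15 SE, edgeR adjusted p = 0.00165), and the combination was higher than MSA2 by 0.62 ± 0.15 SE (edgeR adjusted p = 0.00771) and -0.16 ± 0.15 SE from Control (edgeR adjusted p = 0.791).

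The response to MSA2 differed between BMDC and B cells for 6 of the 8 genes (edgeR adjusted p under 0.05). The test was of the difference in change, in 1 fit of all 6 groups. The change in BMDC minus that in B cells was above 0 for Dusp2 and Dusp16. It was below 0 for Dusp1, Dusp5, Dusp10 and Trib1. Within BMDC, Dusp1 and Dusp16 moved by -0.06 and 0.01 with MSA2. Of all 17740 genes, 16.3% were called higher and 20.7% lower. The log2 fold change in BMDC minus that in B cells was -3.003 ± 0.49 SE for Trib1 (edgeR adjusted p = 9.37e-05), -1.56 ± 0.21 SE for Dusp5 (edgeR adjusted p = 1.12e-05) and -1.74 ± 0.25 SE for Dusp10, which fell in BMDC and rose in B cells (edgeR adjusted p = 2.19e-05). For Dusp2 the change was higher in BMDC by 1.91 ± 0.41 SE (edgeR adjusted p = 0.00124). For Dusp4 and Dusp6 the difference was -0.01 ± 0.36 SE and 0.09 ± 0.30 SE, and neither passed (edgeR adjusted p = 0.9999 and 0.860). That of Dusp6 passed without BMDC Control replicate 3 (0.55, adjusted p = 0.0269).

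For the combination against Control, 1 of 8 genes differed between the cell types, beside 0.902% of all genes called lower and 2.14% called higher. This was Dusp5, whose change was lower in BMDC (-1.53 ± 0.23 SE, edgeR adjusted p = 0.000685), while Trib1 differed by -2.02 ± 0.57 SE (edgeR adjusted p = 0.0666). For the combination against MSA2, the change of Dusp10 was called higher in BMDC than in B cells and those of Dusp2 and Dusp16 lower. Of all genes, 15.3% were called higher and 8.83% lower. Within BMDC none of these genes was called, at 0.41 ± 0.32 SE for Dusp10, -0.91 ± 0.38 SE for Dusp2 and -0.02 ± 0.09 SE for Dusp16. The MSA2 libraries of B cells enter the comparisons with MSA2, and the marker sums given above go with them.

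**Figure D3:**
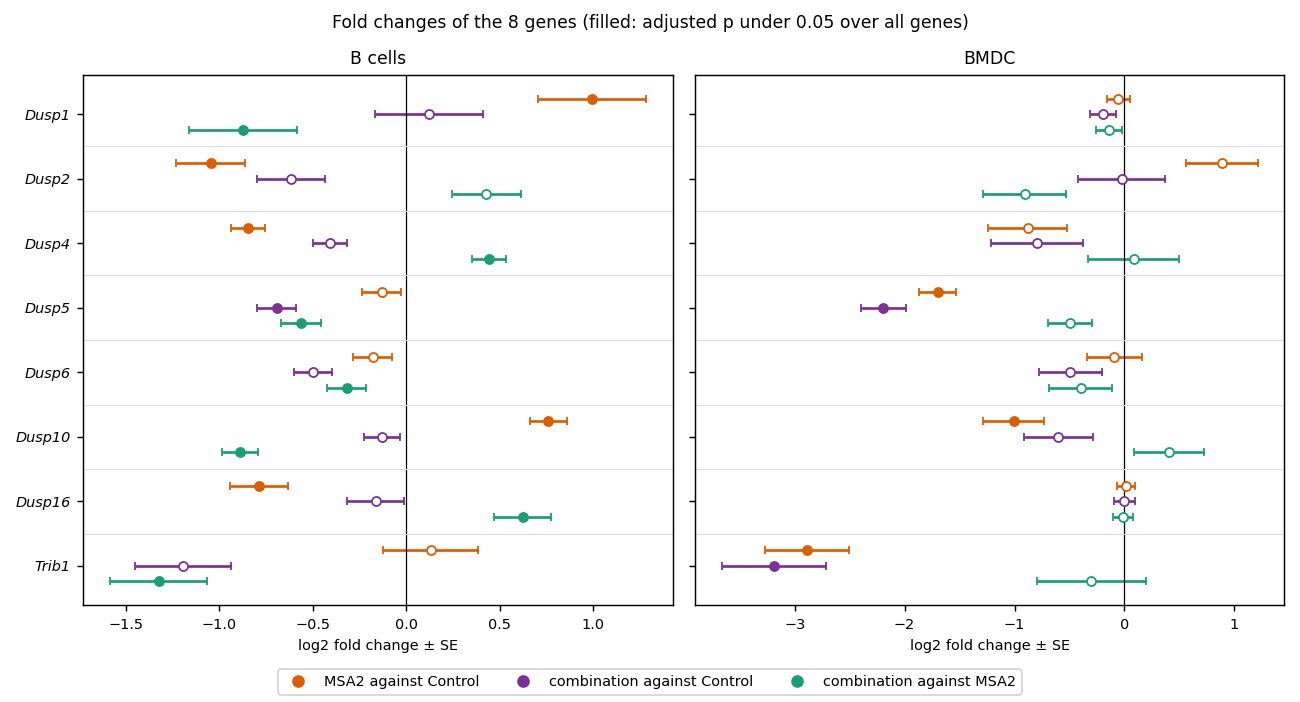
Log2 fold change of the 8 genes with its standard error in B cells (left) and BMDC (right), for MSA2 against Control, the combination against Control and the combination against MSA2. Filled points passed the test over all genes. In BMDC the points of Trib1 and Dusp5 against Control lie at -1.70 or below, and no point of the combination against MSA2 is filled.

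Other genes of the MAP kinase network were taken from 10 lists of 88 genes in all, of which 80 were tested in BMDC and 82 in B cells. In BMDC, 14 of the 80 were higher and 7 lower with the combination against Control, beside 7.51% and 5.38% of all genes. There 22 were higher and 19 lower with MSA2 against Control, beside 14.6% and 13.5%. In B cells, none of the 82 was higher and 2 were lower with the combination against Control, beside 0.686% and 0.371% of all genes. There 27 were higher and 17 lower with MSA2 against Control, beside 24.9% and 18.5%. Against MSA2, 12 were higher and 26 lower with the combination, beside 14.1% and 22.9%. The median log2 fold change of the listed genes was between 0.01 and 0.04 in these comparisons. The MSA2 counts of B cells stand beside the marker sums given above.

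The remaining MAP kinase phosphatases of the family, Dusp7, Dusp8 and Dusp9, gave no call in BMDC. In B cells Dusp8 was lower with MSA2 than in Control, at 14.8 ± 2.85 and 21.7 ± 0.908 CPM (SD, n = 3 each, -0.55 ± 0.19 SE, edgeR adjusted p = 0.0372). Dusp9 was higher, at 0.412 ± 0.139 and 0.0876 ± 0.0617 CPM (SD, n = 3 each, 2.22 ± 0.49 SE, edgeR adjusted p = 0.00355). It was lower with the combination than with MSA2 (-2.58 ± 0.52 SE, edgeR adjusted p = 0.00204). Its mean over the B cell libraries was 0.189 CPM, so these changes rest on few counts. Markers of other cells were higher in the same MSA2 libraries. Among 10 atypical dual-specificity phosphatases tested in BMDC, Dusp14 was the one furthest from Control, with 2.66 ± 0.232 CPM in the combination (SD, n = 2), 2.16 ± 0.347 CPM in MSA2 and 0.198 ± 0.0470 CPM in Control (SD, n = 3 each), and log2 fold changes of 3.71 ± 0.27 SE and 3.42 ± 0.26 SE. Ptprr, a receptor phosphatase that binds ERK and p38, was higher with the combination (1.57 ± 0.21 SE) and with MSA2 (1.58 ± 0.19 SE), and Ptpn7, another phosphatase of these kinases in blood cells, was lower (-0.47 ± 0.08 SE and -0.50 ± 0.07 SE).

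Of 6 other Tribbles genes and partners of Trib1 in BMDC, none was higher and 2 were lower with the combination, beside 7.51% and 5.38% of all genes. With MSA2, 1 was higher and 3 were lower, beside 14.6% and 13.5%. Cop1 was higher (0.21 ± 0.05 SE) and Trib3 lower (-0.49 ± 0.15 SE) with MSA2. Of the C/EBP genes listed beside Trib1, Cebpb and Cebpa were lower in BMDC with either treatment. Cebpd gave no call there (0.10 ± 0.12 SE with the combination, edgeR adjusted p = 0.668, and 0.16 ± 0.11 SE with MSA2, edgeR adjusted p = 0.318). Cebpb had 38.5 ± 4.92 CPM in the combination (SD, n = 2), 24.7 ± 3.18 CPM in MSA2 and 126 ± 7.75 CPM in Control (SD, n = 3 each), which gave a log2 change of -1.72 ± 0.12 SE with the combination (edgeR adjusted p = 2.21e-06) and of -2.35 ± 0.10 SE with MSA2 (edgeR adjusted p = 4.18e-08). For Cebpa the log2 fold changes were -0.85 ± 0.11 SE with the combination and -1.24 ± 0.09 SE with MSA2. In B cells Cebpb was lower with the combination than in Control (-1.16 ± 0.15 SE, edgeR adjusted p = 0.00216), with 23.6 ± 2.73 CPM against 52.6 ± 10.1 CPM (SD, n = 3 each). Cebpa and Cebpd, both genes of myeloid cells, were higher in the MSA2 libraries of B cells than in Control, by 4.07 ± 0.36 SE and 3.87 ± 0.23 SE. In that comparison Trib3 was higher (1.16 ± 0.29 SE) and Cop1 lower (-0.26 ± 0.07 SE). Of the 6 genes, 3 were higher and 1 was lower there, beside 24.9% and 18.5% of all genes.

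The Sprouty and Spred genes, whose products hold back the ERK pathway above MEK, gave calls in both cell types. Of 6 tested in BMDC, 2 were higher with the combination (7.51% of all genes) and 3 with MSA2 (14.6% of all genes) and none was lower, with Spry1 at 1.24 ± 0.24 SE and 1.79 ± 0.22 SE and Spry2 at 0.76 ± 0.19 SE and 1.28 ± 0.16 SE. In B cells 4 of 6 were higher with MSA2 against Control (24.9% of all genes), among them Spry1 (2.13 ± 0.18 SE) and Spry2 (1.74 ± 0.13 SE). Markers of other cells were higher in the same libraries. Spry2 was lower with the combination than in Control (-0.72 ± 0.13 SE, edgeR adjusted p = 0.0216). Among kinases above ERK in BMDC, Map3k8, the kinase that links Toll-like receptors to MEK, had 106 ± 8.28 CPM in the combination (SD, n = 2), 123 ± 13.8 CPM in MSA2 and 15.2 ± 2.002 CPM in Control (SD, n = 3 each). Its log2 fold changes were 2.80 ± 0.12 SE and 3.01 ± 0.11 SE, with edgeR adjusted p-values of 1.12e-07 and 1.70e-08.

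The immediate early genes, which ERK and its partners switch on within minutes, moved both ways. Of 11 tested in BMDC, 3 were higher and 3 lower with the combination, beside 7.51% and 5.38% of all genes. With MSA2, 5 were higher and 5 lower, beside 14.6% and 13.5%. Fos was higher with the combination (2.003 ± 0.38 SE) and with MSA2 (3.10 ± 0.35 SE), while Egr2 was lower (-1.80 ± 0.17 SE and -1.98 ± 0.15 SE), as was Fosl2 (-1.21 ± 0.12 SE and -1.22 ± 0.10 SE). In B cells none of 12 was called between the combination and Control, and 4 were higher and 3 lower with MSA2 against Control, beside 24.9% and 18.5% of all genes, among them Fosl2 (2.23 ± 0.12 SE) and Ier2 (-0.76 ± 0.19 SE).

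**Figure D4:**
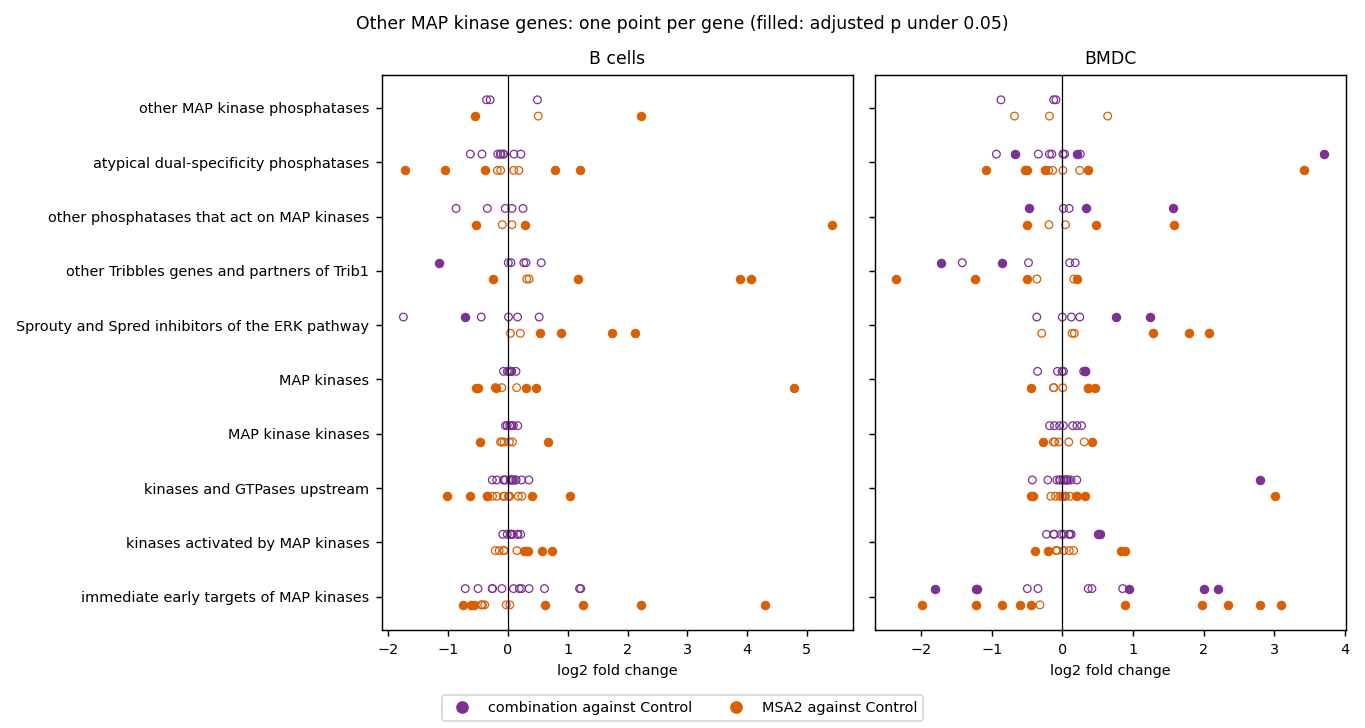
Log2 fold change of each gene of the 10 other MAP kinase lists in B cells (left) and BMDC (right), 1 point per gene, for the combination against Control (upper points of each list) and MSA2 against Control (lower points). Filled points passed the test over all genes. The point furthest right among the kinases upstream in BMDC is Map3k8, at 2.80 and 3.01.

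The genes whose profile over all 17 libraries was most like that of a member were sought for Trib1, Dusp5 and Dusp2, the members that varied most over the 6 groups. Dusp2 came before Dusp10 and Dusp4 by little (SD of the group means 0.371, 0.365 and 0.365). Likeness was the root mean square difference of log2(CPM + 1) after centring within each cell type, over 8536 candidate genes for Trib1 and Dusp5. Closest to Trib1 were Osgin1 (0.41), a gene of the oxidative stress response, then Cebpb (0.46) and Dusp5 itself (0.47). Closest to Dusp5 were Midn (0.23), Itpripl1 (0.29) and Btg2 (0.30), an immediate early gene that slows cell division. Closest to Dusp2 were Rnf41 (0.23), Traf4 (0.24) and Rps27rt (0.24).

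The neighbours of Trib1 and Dusp5 were lower in BMDC with either treatment, in the comparison that also weighs in the measure of likeness, so these values describe the profile and test nothing. With the combination against Control in BMDC, Osgin1 had a log2 fold change of -2.42 ± 0.23 SE, Midn of -1.71 ± 0.14 SE, Btg2 of -2.14 ± 0.15 SE and Itpripl1 of -1.38 ± 0.14 SE. In B cells the same comparison gave -2.09 ± 0.24 SE for Osgin1, -0.52 ± 0.19 SE for Midn, -0.62 ± 0.21 SE for Btg2 and -0.59 ± 0.16 SE for Itpripl1. Of these only Osgin1 passed (edgeR adjusted p = 0.000743, against 0.147 to 0.359 for the other 3). The neighbours of Dusp2 were lower in B cells with MSA2 than in Control, with -0.83 ± 0.07 SE for Rnf41, -0.57 ± 0.09 SE for Traf4 and -0.64 ± 0.16 SE for Rps27rt, and they gave no call in BMDC. These too were picked on the same libraries and test nothing. Dusp2 was at 0.404 to 1.60 CPM in BMDC, where log2(CPM + 1) leaves little range to match.

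**Figure D5:**
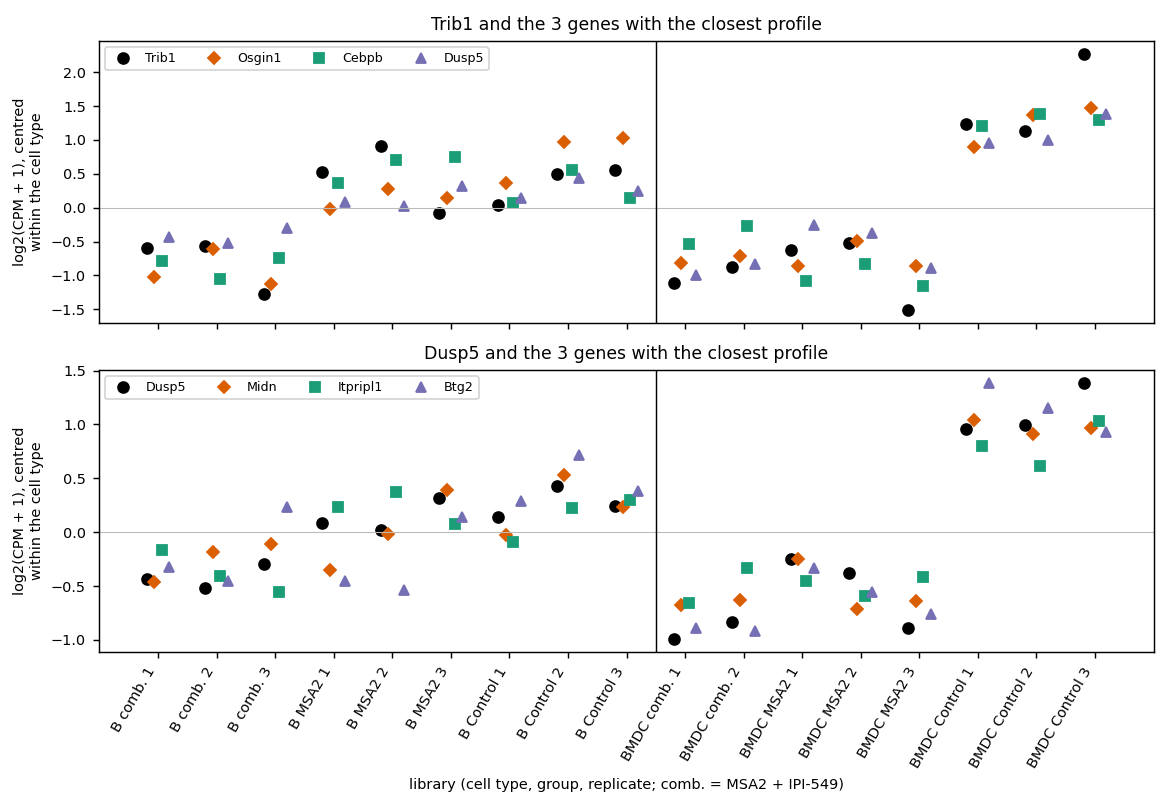
Level of Trib1 (top) and Dusp5 (bottom) in each library beside the 3 genes with the closest profile, as log2(CPM + 1) minus the mean of the cell type, with B cells left and BMDC right of the line. In BMDC the Control libraries are the highest for Trib1, Dusp5 and their neighbours, and in B cells the combination libraries of Trib1 and Dusp5 lie below 0.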

How the data were processed

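RNA sequencing libraries of mouse B cells and BMDC were analysed from 2 deposited tables of expected counts per gene. Per the submitters' processing notes, the tools were FastQC 0.11.8, MultiQC 1.20, RSEM 1.3.3, STAR 2.7.8a and cutadapt 4.8, the build was GRCm38, and the authors' expected counts, which RSEM estimates and which divide reads between similar genes, were already whole numbers. Strand and annotation release are not given in the sources used here. Titles gave the groups, because all 17 libraries carry the treatment label Control.

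The 3 groups of a cell type entered 1 quasi-likelihood F test of edgeR 4.0.16 (R 4.3.3), after TMM scaling and filterByExpr, and all 6 groups entered a further fit to test differences between the cell types. CPM use the TMM-scaled total. Members and lists were chosen with earlier results of these data known. Other genes named were up to 3 called genes per list and direction with a mean of at least 1 CPM, and the 3 genes most like a member (mean of at least 5 CPM in both cell types). Dusp7, Dusp8, Dusp9 and Cebpd were named whether or not they met this rule. From these, the text gives a selection. The alternatives were DESeq2 1.42.0, limma-voom (limma 3.58.1), scaling by RLE or upper quartile, and a filter at 1 CPM in 3 libraries or none. Others were a fit of only the compared groups, the title suffix as replicate block over the 3 groups of a cell type, and the omission of any 1 library. Combination and MSA2 libraries of B cells with the same suffix deviated together, at correlations of 0.29, 0.30 and 0.49 over genes. They may be pairs, which the main fit did not use. Scripts were tested on simulated data. Precision is limited by 2 or 3 libraries in a group. No 2 libraries of a group agreed within counting noise (chi-square per degree of freedom at least 9.52).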

Additional observations from a re-analysis of the deposited data

Results flagged for a closer look

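The change under the same contrast differed between BMDC and B cells for several of the 8 genes, by a test of the difference itself (quasi-likelihood test of edgeR, Benjamini-Hochberg adjusted, BMDC minus B cells, log2 scale). For MSA2 against Control these were Dusp1 at -1.05 (adjusted p = 0.0269), Dusp2 at 1.91 (adjusted p = 0.00124), Dusp5 at -1.56 (adjusted p = 1.12e-05), Dusp10 at -1.74 (adjusted p = 2.19e-05), Dusp16 at 0.81 (adjusted p = 0.00177) and Trib1 at -3.00 (adjusted p = 9.37e-05). For the combination against Control it was Dusp5 at -1.53 (adjusted p = 0.000685). For the combination against MSA2 these were Dusp2 at -1.36 (adjusted p = 0.0400), Dusp10 at 1.24 (adjusted p = 0.00375) and Dusp16 at -0.68 (adjusted p = 0.0152). Both comparisons with MSA2 use the MSA2 libraries of B cells. There B cell markers were lower and markers of other cells higher than in Control. In BMDC, Dusp1 moved by -0.06 and Dusp16 by 0.01 with MSA2, and Dusp16 by -0.02 between the combination and MSA2. Dusp2 had 16 to 66 counts in BMDC and no call there. The part of the markers in these differences was not tested.

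The call of Dusp1 was lost without B cell Control replicate 1 (adjusted p = 0.0549), B cell MSA2 replicate 3 (adjusted p = 0.0739), BMDC Control replicate 3 (adjusted p = 0.0595) or BMDC MSA2 replicate 3 (adjusted p = 0.0674). Those of Dusp10 and Dusp16 for the combination against MSA2 were lost without BMDC combination replicate 1 (adjusted p = 0.142 and 0.0875), and that of Dusp16 also without BMDC combination replicate 2 (adjusted p = 0.0549). That of Dusp2 was lost in 5 fits without 1 library, B cell MSA2 replicate 1 or 2, B cell combination replicate 3, BMDC MSA2 replicate 1 or BMDC combination replicate 1, at adjusted p-values from 0.0524 to 0.261, and in limma-voom (adjusted p = 0.213). The difference of Trib1 for the combination against Control missed the threshold (-2.02, adjusted p = 0.0666) and passed with no filter on low counts (adjusted p = 1.40e-06), with DESeq2 (adjusted p = 0.0303) and without B cell MSA2 replicate 3 (adjusted p = 0.0412), BMDC Control replicate 2 (adjusted p = 0.0454) or BMDC MSA2 replicate 3 (adjusted p = 0.0444). For the combination against MSA2, Dusp1 passed with no filter (adjusted p = 0.0162) and without B cell combination replicate 3 (adjusted p = 0.00140), and Trib1 with no filter (adjusted p = 0.0410).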

How the results depend on the processing

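Of 1339 alternative values of the 8 genes, 1268 stayed on the same side of the threshold, 34 lost and 37 gained a call, and none reversed. With no filter on low counts, the gains of Dusp4 and Dusp6 in BMDC came with a smaller SE and little move in the change. The same held for Trib1 in the difference between cell types, combination against Control (-2.02 ± 0.32 SE, with 0.57 SE in the main fit). Against Control in BMDC, the calls of Dusp5 and Trib1 held in all 16 alternatives, from -2.28 to -2.04 and -3.41 to -2.70 with the combination and from -1.83 to -1.52 and -3.20 to -2.40 with MSA2. Trib1 in B cells, combination against Control, passed in 6 of 17 alternatives (DESeq2 adjusted p = 0.000134).

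Genes called between the combination and Control in B cells numbered 171, against 359 with no filter, 391 with DESeq2 and 260 with the replicate block, and 91 (without Control replicate 2) to 220 (without MSA2 replicate 3) when 1 library was left out. Between the combination and MSA2 in BMDC they numbered 0, against 561 with no filter, 162 with DESeq2, 3 with limma-voom and 13 with the compared groups alone, and 0 to 99 with 1 library left out (99 without MSA2 replicate 2). For the difference between cell types, combination against Control, 539 genes were called, against 818 with no filter and 888 with DESeq2, and 246 (without BMDC combination replicate 1) to 654 with 1 library left out. Leaving out 1 library gave 5877 to 7374 calls for MSA2 against Control and 4977 to 6080 for the combination against MSA2 in B cells, 2944 to 3794 and 843 to 2177 for MSA2 and the combination against Control in BMDC (843 without combination replicate 1), and 5745 to 6734 and 3153 to 4364 for the differences between cell types in MSA2 against Control and the combination against MSA2. Where 1 BMDC combination library was left out, the lone library was assumed to vary like the other groups. Upper quartile factors moved the higher and lower calls in BMDC to 1678 and 2896 with MSA2 (2140 and 1978 with TMM) and to 937 and 1049 with the combination (1097 and 786 with TMM). The cause was not tested.

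Libraries that share a title suffix correlated at -0.02 to 0.49 in B cells (4 of 9 pairs above 0.1) and at -0.17 to 0.10 in BMDC (0 of 7), and 8 of 9 and 2 of 8 libraries correlated best with one of their own suffix. In B cells all 3 pairs of the combination with MSA2 were above 0.1 (0.29 to 0.49), and may be pairs. Those of the combination with Control were at -0.02 to 0.03. The main fit used no block in any comparison, so its values for the combination against MSA2 leave this pairing out. The block fit held all 3 groups of B cells, Control included. With the replicate block Dusp4 and Trib1 gained a call for the combination against Control in B cells (adjusted p = 0.0259 and 0.0257), as did Dusp2 for the combination against MSA2 (adjusted p = 0.0444), and the block changed no other call of the 8 genes. The lack of a group with IPI-549 by itself, and of doses and times in the labels, limits what the comparisons can separate.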
